A study of Mus musculus with 24 samples.

Results

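The genes described here are 40 genes of sterol and fatty acid metabolism, chosen by name for their known roles. They were followed in mouse dendritic cells derived from bone marrow, on 24 one-colour Agilent expression arrays. They fall into 7 genes of the mevalonate pathway, 11 that carry squalene to cholesterol, 6 that sense sterols or move them inside the cell, 8 of cholesterol efflux, esterification and lysosomal release, and 8 of fatty acid synthesis and remodelling. All 40 had a probe that passed the filter, among 20210 features tested, of which 12649 were named genes. On all 24 arrays 39 of them were well above background, and Scd1 was so on 23.

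Bone marrow cells were cultured for 9 days with human Flt3 ligand at 100 ng/ml, which yields plasmacytoid and conventional dendritic cells. They then received CpG-B, a synthetic DNA ligand of Toll-like receptor 9, for 6 h at 150 nM, or were left unstimulated. The 4 genotypes were DKO (labelled as lacking Lyn and Irf5), Irf5-KO, Lyn-KO and WT, all C57BL/6, with 3 arrays in each of the 8 groups. IRF5 is a transcription factor that acts downstream of Toll-like receptors, and Lyn is a Src-family tyrosine kinase. The labels call the triplicates biological without naming separate animals or cultures, so the p-values measure the spread between these samples. The cells are a bulk culture, in which fewer cells of a type and less RNA per cell cannot be told apart.

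Cholesterol is built from acetyl-CoA through mevalonate, the isoprenoids and squalene. When membrane sterol is low, the escort protein SCAP carries the precursor of SREBP2 to the Golgi, and the released fragment switches on the genes of synthesis and of lipoprotein uptake. When sterol is high, INSIG proteins hold SCAP back, and oxysterols activate the liver X receptors, which raise efflux pumps such as ABCA1. Fatty acid genes answer largely to SREBP1. In macrophages and dendritic cells, Toll-like receptors and type I interferon are known to shift this balance.

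The share of spots well above background was 41.0% to 53.8% per array, no spot was saturated, and arrays of the same group correlated at 0.991 to 0.996 over all features. The number of arrays limits the precision. The arrays came on 3 slides, all groups were on each slide, and the replicate number is the slide. Every genotype and stimulation had its own fixed position on the slide, so position and group cannot be told apart. As a check of the labels, Lyn was at -1.12, -1.10 and -1.07 in DKO cells and -0.23, -0.23 and -0.23 in Lyn-KO cells, against 2.29, 2.17 and 2.19 in WT cells with CpG-B (log2 signal). The Irf5 probe was higher, not lower, in the arrays labelled DKO and Irf5-KO than in WT with CpG-B. The sources used here do not say whether it lies in the deleted part, and it gives no check of that label. The names Irf5-KO and DKO therefore stand for what the arrays are labelled. The summed signal of 5 dendritic cell markers was 939 to 1320 times the 75th percentile of an array, and all 5 were above background in every group. Markers of other cells moved with the groups. With CpG-B, the summed signal of 7 monocyte and macrophage markers was 42.6 to 65.2 for DKO, 45.8 to 52.4 for Irf5-KO, 26.2 to 28.3 for Lyn-KO and 26.7 to 28.0 for WT cells, with 6 of the 7 above background in each. That of 6 plasmacytoid markers, all above background, was 938 to 1030 for DKO, 643 to 690 for Irf5-KO, 959 to 1080 for Lyn-KO and 679 to 728 for WT cells with CpG-B. The summed signal of 5 type 1 conventional dendritic cell markers ran the other way, at 25.3 to 31.1 for DKO, 32.5 to 37.2 for Irf5-KO, 38.0 to 39.7 for Lyn-KO and 46.3 to 51.5 for WT cells with CpG-B, without overlap, with 4 of the 5 above background in DKO, 5 in Irf5-KO and Lyn-KO and 3 in WT. Without CpG-B it was 25.2 to 27.6 for DKO and 19.0 to 22.9 over the other 3 genotypes. That of 5 basophil and mast cell markers was 3.81 to 5.25 for DKO, 1.31 to 1.78 for Irf5-KO, 1.46 to 1.92 for Lyn-KO and 1.88 to 2.60 for WT cells with CpG-B. That of 7 B cell markers was 11.7 to 13.4 for DKO, 44.0 to 53.7 for Irf5-KO, 16.4 to 17.7 for Lyn-KO and 35.1 to 37.3 for WT cells, and that of 9 neutrophil markers was 23.0 to 52.9 for DKO, 49.0 to 67.7 for Irf5-KO, 40.4 to 46.0 for Lyn-KO and 61.6 to 68.0 for WT cells. That of 6 type 2 conventional markers was 161 to 185 for DKO, 176 to 181 for Irf5-KO, 159 to 170 for Lyn-KO and 167 to 178 for WT cells. With CpG-B the type 1 sums thus had the genotype order that 20 of the 40 genes show below, turned round. The medians of the same markers, each as log2 signal minus its own mean over all arrays, did not show this reversed order. With CpG-B these medians were 0.05 to 0.23 for DKO and -0.57 to -0.18 for Irf5-KO cells. They were -0.61 to -0.45 for Lyn-KO and -0.51 to -0.38 for WT cells. DKO was thus lowest on the type 1 sum and highest on the type 1 median. For the type 2 markers the medians with CpG-B were -0.27 to -0.21 for DKO and -0.37 to -0.31 for Irf5-KO cells. They were -0.88 to -0.63 for Lyn-KO and -0.89 to -0.69 for WT cells. DKO was thus highest on the type 2 median, Irf5-KO came next, and Lyn-KO and WT overlapped below them. The part of all these cell types in the results below was not tested.

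CpG-B raised the mevalonate genes in every genotype and lowered most of the fatty acid genes. With CpG-B the mean was highest in DKO cells for 6 of the 7 mevalonate genes and 10 of the 11 genes from squalene to cholesterol. It was so for 3 of the 6 sensing and transport genes, 3 of the 8 efflux genes and 5 of the 8 fatty acid genes. That made 27 of the 40, against 6955 of all 20210 features. A gene was called when its adjusted p fell below 0.05 (limma over all 20210 features, Benjamini-Hochberg, 2-sided). All values below are log2 signals relative to the 75th percentile of the array, and changes are log2 differences ± SE of the fit. In DKO cells 26 of the 40 genes rose with CpG-B, against 34.6% of all features, and 10 fell, against 35.9%. In Irf5-KO cells 25 rose, against 31.6% of all features, and 10 fell, against 35.2%. In Lyn-KO cells 22 rose, against 32.8%, and 13 fell, against 36.1%. In WT cells 21 rose, against 31.2%, and 13 fell, against 37.2%. The share that rose was thus above that of all features in each genotype, and the share that fell was below it. The median response of the 40 was 0.74 for DKO, 0.59 for Irf5-KO, 0.43 for Lyn-KO and 0.35 for WT cells, while that of all features lay between -0.03 and 0.02.

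The responses differed between the genotypes when the difference itself was tested. The CpG-B response was higher than that of WT for 24 of the 40 genes in DKO cells, against 17.3% of all features, and lower for 5, against 13.2%. In Irf5-KO cells it was higher for 21, against 7.48% of all features, and lower for 4, against 5.16%. In Lyn-KO cells it was higher for 2, against 6.04%, and lower for 2, against 5.02%. The 2 higher were Nr1h3 and Scd1, and the 2 lower were Soat2 and Elovl6. With the slide as a block in the fit, Sc5d and Srebf2 also passed in Lyn-KO cells, which gave 4 higher. A higher response is a larger rise or a smaller fall. Scd1 fell in Lyn-KO cells, but less than in WT and from a lower unstimulated level. In DKO too, Scd1, Scd2, Fads1 and Npc1 fell less than in WT cells. The genes lower in Irf5-KO were Scap, Soat2, Mylip and Elovl6, and Pmvk joined these 4 in DKO, though its second probe did not pass there. The Scap calls rested on single arrays: without any one of 11 arrays the DKO difference lost its call, at -0.31 to -0.22, and without any one of 8 arrays the Irf5-KO difference did, at -0.35 to -0.27. Some higher calls were lost likewise: Insig1 in DKO without any one of 8 arrays, and in Irf5-KO Fads2 of 9, Fasn of 6 and Srebf2 of 5. Leaving out single arrays gave 22 to 24 higher in DKO and 17 to 22 in Irf5-KO. After normexp background correction and quantile normalisation 24 and 14 were higher.

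Among CpG-B cells themselves, 26 of the 40 genes were higher in DKO than in WT, against 24.9% of all features, and 6 were lower, against 19.9%. In Irf5-KO, 25 were higher than in WT, against 14.4%, and 4 were lower, against 11.1%. In Lyn-KO, 15 were higher than in WT, against 13.9%, and 5 were lower, against 11.2%. DKO cells exceeded Lyn-KO cells for 30 genes, against 16.8% of all features, and fell below them for 4, against 14.7%. They exceeded Irf5-KO cells for 25, against 18.1%, and fell below them for 6, against 14.9%. These comparisons share arrays, so their counts are not independent of each other. The means with CpG-B ran in the order DKO, Irf5-KO, Lyn-KO, WT from high to low for 20 of the 40 genes, against 10.4% of all features, an order looked for after the values were seen. Without CpG-B 0 of the 40 had that order, against 3.61% of all features. It held for 5 of the 7 mevalonate genes and 7 of the 11 genes from squalene to cholesterol. Single steps of the order did not all pass the test. Hmgcs1 and Fdft1 missed it between Lyn-KO and WT, and passed it with the slide as a block. Mvk (adjusted p = 0.26), Tm7sf2 (adjusted p = 0.193), Lss and Cyp51 also missed it between Lyn-KO and WT, with and without the block. Outside the synthesis genes, the steps missed included those of Insig1, Scd2 and Fads1 between Lyn-KO and WT. Nr1h3 missed it between DKO and Irf5-KO (adjusted p = 0.647). The step between Irf5-KO and Lyn-KO was not tested. The 6 genes lower in DKO than in Irf5-KO became 3 without CpG-B replicate 2 of DKO or of Irf5-KO, and the 5 lower in Lyn-KO than in WT became 3 without WT CpG-B replicate 2. The 15 higher in Lyn-KO than in WT became 10 to 14 when any single array of these groups was left out. Acat2, Fads2, Fdps, Hsd17b7, Mylip, Srebf1 and Srebf2 each lost that call without some single array.

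**Figure D1:**
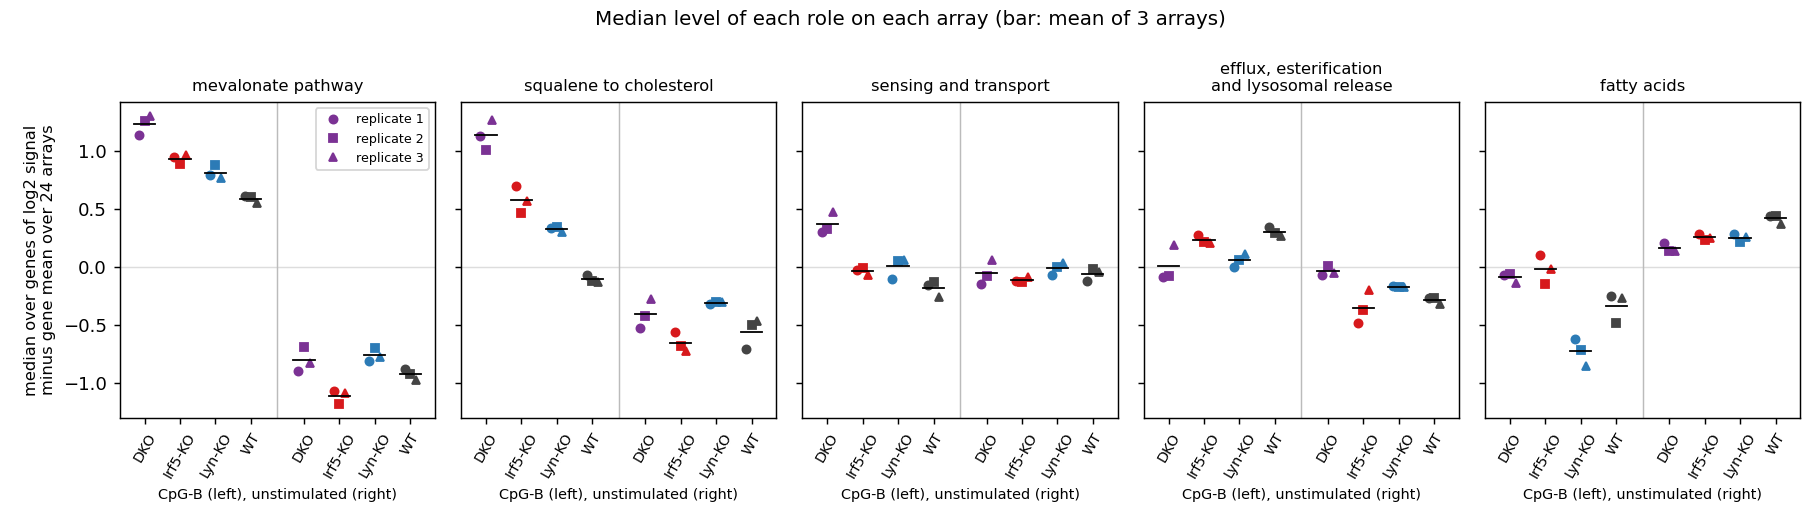
Each panel gives one role of the 40 genes, and each point is the median, over the genes of that role, of the log2 signal minus the gene's own mean over the 24 arrays (y axis, log2). Colours are genotypes, symbols are replicates, bars are means of 3 arrays, and CpG-B groups stand left of the unstimulated ones. The 3 DKO arrays with CpG-B lie above all others for the mevalonate pathway and for squalene to cholesterol, and the unstimulated groups lie close together there.

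The mevalonate genes came closest to a uniform response: 7 of 7 rose with CpG-B in each genotype. Their median change was 2.02 for DKO, 2.01 for Irf5-KO, 1.53 for Lyn-KO and 1.46 for WT cells. Acat2 and Hmgcs1 join acetyl units into HMG-CoA, and Mvk, Pmvk and Mvd phosphorylate mevalonate and decarboxylate it. Idi1 and Fdps make the isoprenoid building blocks and join them into farnesyl diphosphate.

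Hmgcs1, the synthase that makes HMG-CoA, had signals with CpG-B of 7.54, 7.52 and 7.84 in DKO cells, 7.12, 7.12 and 7.23 in Irf5-KO cells, 6.60, 6.69 and 6.75 in Lyn-KO cells and 6.42, 6.55 and 6.40 in WT cells. Without CpG-B it had 4.62, 4.70 and 4.80 in DKO cells, 4.55, 4.41 and 4.30 in Irf5-KO cells, 4.79, 4.88 and 4.95 in Lyn-KO cells and 4.45, 4.56 and 4.67 in WT cells. With CpG-B the 4 genotypes did not overlap, DKO was highest and WT lowest, and every CpG-B array lay above every unstimulated one. It rose by 2.93 (adjusted p = 7.45e-16) for DKO, 2.74 (adjusted p = 2.23e-15) for Irf5-KO, 1.81 (adjusted p = 8.04e-13) for Lyn-KO and 1.90 (adjusted p = 4.06e-13) for WT cells, which was 7.62-fold in DKO and 3.73-fold in WT. The response exceeded that of WT by 1.03 ± 0.12 in DKO and by 0.84 ± 0.12 in Irf5-KO cells. For Lyn-KO the difference of response was -0.09 ± 0.12 (adjusted p = 0.746), with a 95% interval of -0.35 to 0.17.

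Idi1, which isomerises isopentenyl diphosphate, had CpG-B signals of 7.16, 7.19 and 7.41 in DKO cells, 6.64, 6.66 and 6.80 in Irf5-KO cells, 6.53, 6.56 and 6.66 in Lyn-KO cells and 6.23, 6.21 and 6.13 in WT cells. Its unstimulated signals were 3.62, 3.73 and 3.69 in DKO cells, 3.48, 3.44 and 3.31 in Irf5-KO cells, 3.78, 3.86 and 3.91 in Lyn-KO cells and 3.71, 3.64 and 3.67 in WT cells. This was the strongest response among the mevalonate genes in DKO and Irf5-KO cells, and with CpG-B the DKO arrays lay highest and the WT arrays lowest, while Irf5-KO and Lyn-KO overlapped. The increase was 11.9-fold in DKO, 9.79-fold in Irf5-KO, 6.64-fold in Lyn-KO and 5.72-fold in WT cells (adjusted p at most 1.96e-16). With CpG-B all 3 mutants were above WT, by 1.06 (adjusted p = 4.36e-10) in DKO, 0.51 (adjusted p = 1.65e-05) in Irf5-KO and 0.39 (adjusted p = 0.000279) in Lyn-KO cells.

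Mvd, the decarboxylase that ends the mevalonate steps, showed the largest gap between DKO and WT in this group. With CpG-B its signals were 3.35, 3.36 and 3.41 in DKO cells, 2.80, 2.43 and 2.60 in Irf5-KO cells, 2.51, 2.25 and 2.27 in Lyn-KO cells and 2.02, 1.81 and 1.99 in WT cells. Without CpG-B they were 1.84, 1.73 and 1.69 in DKO cells, 1.74, 1.48 and 1.54 in Irf5-KO cells, 1.97, 1.71 and 1.58 in Lyn-KO cells and 1.54, 1.59 and 1.47 in WT cells. Unstimulated, the DKO arrays lay slightly above WT, a difference that did not pass the test, while with CpG-B they lay apart and above the rest. The rise of Mvd was 1.62 (adjusted p = 6.67e-11) for DKO, 1.02 (adjusted p = 6.32e-08) for Irf5-KO, 0.59 (adjusted p = 5.86e-05) for Lyn-KO and 0.40 (adjusted p = 0.00223) for WT cells, and the response exceeded that of WT by 1.22 ± 0.15 in DKO and 0.62 ± 0.15 in Irf5-KO cells.

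Pmvk, the kinase between Mvk and Mvd, rose most of all in WT cells on the probe used here, unlike the other 6. It had 6.76, 6.81 and 7.01 in DKO cells, 7.0, 7.19 and 7.05 in Irf5-KO cells, 7.32, 7.35 and 7.38 in Lyn-KO cells and 7.20, 7.28 and 7.26 in WT cells with CpG-B. Unstimulated cells had 4.45, 4.72 and 4.60 in DKO cells, 4.30, 4.35 and 4.37 in Irf5-KO cells, 4.52, 4.55 and 4.55 in Lyn-KO cells and 4.27, 4.42 and 4.41 in WT cells. The 3 DKO arrays with CpG-B were below all WT and Lyn-KO arrays with CpG-B. The response was 2.26 for DKO, 2.74 for Irf5-KO, 2.81 for Lyn-KO and 2.88 for WT cells, and it was lower in DKO than in WT, with a difference of -0.62 ± 0.10 (adjusted p = 0.000104). On the second Pmvk probe the response was 2.29 for DKO, 2.72 for Irf5-KO, 3.14 for Lyn-KO and 3.05 for WT cells. There the DKO difference of response from WT was -0.77 (adjusted p = 0.0735) and that of level with CpG-B -0.50 (adjusted p = 0.0787), and neither passed. Acat2, Mvk and Fdps followed the other genes, with responses of 2.01, 1.5 and 2.02 in DKO, against 1.41, 0.96 and 1.46 in WT cells. All 3 responses were higher in DKO than in WT (adjusted p at most 0.00105).

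**Figure D2:**
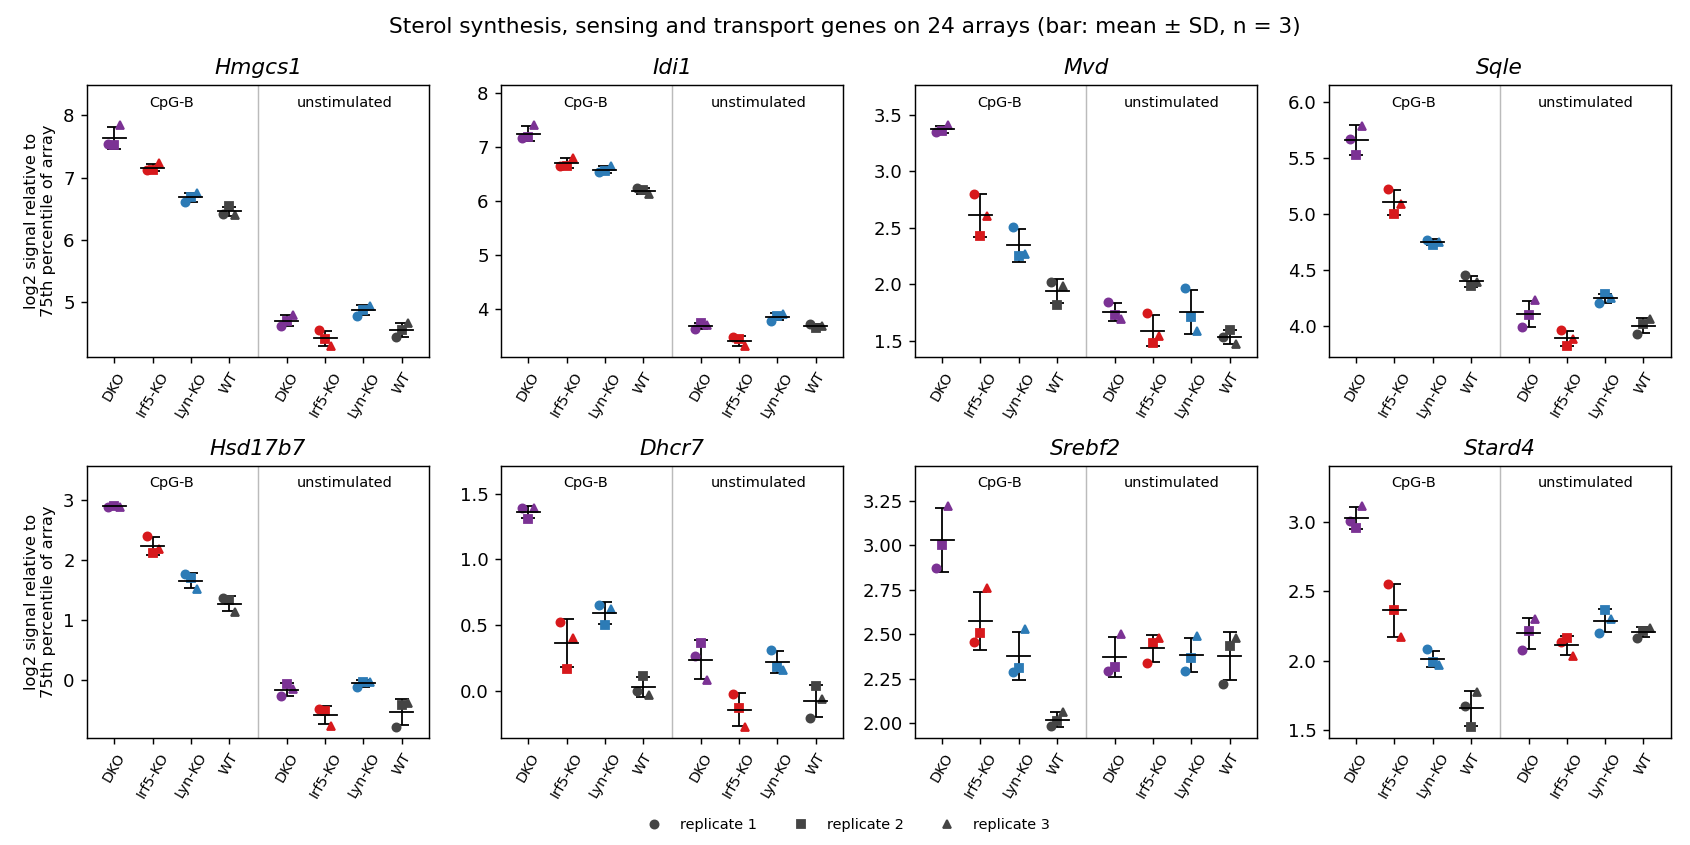
Log2 signal relative to the 75th percentile of the array (y axis) of 8 genes on each of the 24 arrays, with CpG-B groups left and unstimulated groups right of the grey line, genotypes in colours and replicates as symbols. Bars are means ± SD of 3 arrays. For Hmgcs1, Idi1, Mvd, Sqle, Hsd17b7 and Dhcr7 every DKO array with CpG-B lies above every other array, while for Srebf2 and Stard4, on the probe shown, the WT arrays with CpG-B lie below the unstimulated WT arrays.

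From squalene to cholesterol, most genes rose with CpG-B, and their number differed between the genotypes. Of the 11 genes, 9 rose and 1 fell in DKO, 9 rose and 2 fell in Irf5-KO, 8 rose and 2 fell in Lyn-KO, and 7 rose and 2 fell in WT cells. Msmo1 was not counted as risen in Lyn-KO or WT, where low Lyn-KO arrays widened its SE, as given below. The median change was 1.60 for DKO, 1.22 for Irf5-KO, 0.74 for Lyn-KO and 0.40 for WT cells. With CpG-B 9 of the 11 were higher in DKO than in WT, 8 in Irf5-KO and 4 in Lyn-KO. The 4 in Lyn-KO were Sqle, Hsd17b7, Sc5d and Dhcr7. On its second probe Hsd17b7 missed the test there, at 0.27 (adjusted p = 0.0755).

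Sqle, squalene epoxidase, catalyses a rate-limiting step of this branch. Its CpG-B signals were 5.67, 5.52 and 5.79 in DKO cells, 5.22, 5.0 and 5.09 in Irf5-KO cells, 4.77, 4.72 and 4.75 in Lyn-KO cells and 4.45, 4.36 and 4.39 in WT cells. Unstimulated, they were 3.99, 4.09 and 4.23 in DKO cells, 3.96, 3.82 and 3.88 in Irf5-KO cells, 4.21, 4.28 and 4.25 in Lyn-KO cells and 3.93, 4.02 and 4.06 in WT cells. With CpG-B the 4 genotypes formed 4 separate levels, with DKO at the top and WT at the bottom. The rise was 2.94-fold in DKO, 2.32-fold in Irf5-KO, 1.42-fold in Lyn-KO and 1.32-fold in WT cells (adjusted p at most 7.06e-05). With CpG-B it was above WT by 1.26 (adjusted p = 8.35e-11) in DKO, 0.70 (adjusted p = 6.36e-07) in Irf5-KO and 0.35 (adjusted p = 0.00127) in Lyn-KO cells.

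Hsd17b7, a keto-reductase that helps remove the methyl groups of lanosterol, had the largest response of the 11 in DKO and Irf5-KO cells. Its signals with CpG-B were 2.88, 2.90 and 2.89 in DKO cells, 2.40, 2.12 and 2.19 in Irf5-KO cells, 1.76, 1.70 and 1.51 in Lyn-KO cells and 1.36, 1.32 and 1.13 in WT cells. Without CpG-B they were -0.28, -0.07 and -0.15 in DKO cells, -0.49, -0.52 and -0.76 in Irf5-KO cells, -0.13, -0.03 and -0.03 in Lyn-KO cells and -0.78, -0.42 and -0.39 in WT cells. The 3 DKO arrays with CpG-B lay close together and stood above all others. The increase was 8.3-fold in DKO and 7.08-fold in Irf5-KO, against 3.49-fold in WT cells. The response exceeded that of WT by 1.25 ± 0.15 in DKO (adjusted p = 3.71e-06) and 1.02 ± 0.15 in Irf5-KO (adjusted p = 0.000112), and differed by -0.09 ± 0.15 in Lyn-KO (adjusted p = 0.795).

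Sc5d and Dhcr7 act near the end of the pathway, where Sc5d introduces a double bond and Dhcr7 makes cholesterol from 7-dehydrocholesterol. Sc5d had CpG-B signals of 4.46, 4.61 and 4.77 in DKO cells, 3.83, 3.75 and 3.76 in Irf5-KO cells, 3.62, 3.68 and 3.91 in Lyn-KO cells and 3.14, 3.22 and 3.15 in WT cells. Dhcr7 had 1.39, 1.31 and 1.39 in DKO cells, 0.52, 0.16 and 0.40 in Irf5-KO cells, 0.66, 0.50 and 0.63 in Lyn-KO cells and 0.00, 0.11 and -0.03 in WT cells with CpG-B. In unstimulated cells Dhcr7 had 0.27, 0.37 and 0.08 in DKO cells, -0.03, -0.13 and -0.27 in Irf5-KO cells, 0.31, 0.18 and 0.16 in Lyn-KO cells and -0.20, 0.04 and -0.06 in WT cells. Dhcr7 arrays of WT cells overlapped between CpG-B and unstimulated, whereas those of DKO cells lay far apart. Dhcr7 responded by 1.12 (adjusted p = 2.78e-09) for DKO, 0.50 (adjusted p = 0.000103) for Irf5-KO, 0.38 (adjusted p = 0.00157) for Lyn-KO and 0.10 (adjusted p = 0.337) for WT cells, and Sc5d by 1.68 for DKO, 1.15 for Irf5-KO, 0.74 for Lyn-KO and 0.35 for WT cells. The responses of DKO exceeded those of WT by 1.33 ± 0.13 for Sc5d and 1.02 ± 0.13 for Dhcr7 (adjusted p = 4.17e-07 and 9.61e-06).

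Msmo1, a sterol C4-methyl oxidase, had 1 array apart in each Lyn-KO group. With CpG-B it had 6.19, 6.15 and 6.35 in DKO cells, 5.81, 5.59 and 5.75 in Irf5-KO cells, 5.46, 5.30 and 3.78 in Lyn-KO cells and 5.12, 5.06 and 5.22 in WT cells. Unstimulated, it had 4.49, 4.42 and 4.58 in DKO cells, 4.42, 4.21 and 4.16 in Irf5-KO cells, 4.57, 4.57 and 2.92 in Lyn-KO cells and 4.40, 4.33 and 4.40 in WT cells. Replicate 3 of Lyn-KO was far below its partners with and without CpG-B. CpG-B raised Msmo1 by 1.73 (adjusted p = 0.000379) in DKO and 1.45 (adjusted p = 0.00195) in Irf5-KO cells. Its changes of 0.83 (adjusted p = 0.0551) in Lyn-KO and 0.76 (adjusted p = 0.0775) in WT did not pass. The fit takes 1 spread per gene over all 8 groups, so the 2 low Lyn-KO arrays also widened the SE for the other genotypes. With and without CpG-B the SD was 0.93 and 0.95 in Lyn-KO, against 0.08 and 0.04 in WT. All WT arrays with CpG-B lay above all unstimulated WT arrays. With the slide as a block the Lyn-KO change passed (adjusted p = 0.0455). Without Lyn-KO CpG-B replicate 3 alone it was 1.36, and without unstimulated Lyn-KO replicate 3 alone it was 0.28. Each of these leaves out only 1 of the 2 low arrays, so it shifts 1 group mean and not the other. In each Lyn-KO replicate the CpG-B array lay above the unstimulated one, but a fit paired within the genotype was not run. With CpG-B, DKO exceeded WT by 1.09 ± 0.37, a call that ended without DKO replicate 3 or WT replicate 2, at 1.03 to 1.05. DKO exceeded Lyn-KO by 1.38 ± 0.37, and by 0.85 without Lyn-KO CpG-B replicate 3 (adjusted p = 0.0509).

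Fdft1, which makes squalene, and Lss and Cyp51, which close the sterol ring and demethylate it, rose in all 4 genotypes. Fdft1 rose by 2.73 for DKO, 2.48 for Irf5-KO, 1.75 for Lyn-KO and 1.80 for WT cells. Lss rose by 2.53 for DKO, 2.62 for Irf5-KO, 1.67 for Lyn-KO and 1.82 for WT cells. The differences of its response from WT in DKO and Irf5-KO did not pass the test (adjusted p = 0.0586 and 0.063). Cyp51 rose by 1.41 for DKO, 1.00 for Irf5-KO, 0.32 for Lyn-KO and 0.31 for WT cells, and its call in WT (adjusted p = 0.0326) ended without CpG-B replicate 1, CpG-B replicate 3 or unstimulated replicate 1 of WT, where the change was 0.26, 0.31 and 0.14. In Lyn-KO its call ended without CpG-B replicate 1 or 3 or unstimulated replicate 2, with changes of 0.26 to 0.32.

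Nsdhl, a sterol dehydrogenase, rose by 1.60 for DKO, 1.35 for Irf5-KO, 1.47 for Lyn-KO and 1.45 for WT cells, and its response did not pass the test against WT in any mutant (adjusted p at least 0.465). Tm7sf2 and Ebp went the other way. Tm7sf2, a sterol reductase, had 1.46, 1.34 and 1.63 in DKO cells, 1.13, 0.85 and 1.09 in Irf5-KO cells, 1.02, 0.79 and 0.74 in Lyn-KO cells and 0.74, 0.68 and 0.68 in WT cells with CpG-B. It had 1.47, 1.58 and 1.59 in DKO cells, 1.27, 1.26 and 1.35 in Irf5-KO cells, 1.60, 1.64 and 1.59 in Lyn-KO cells and 1.40, 1.46 and 1.47 in WT cells without CpG-B. In WT and Lyn-KO the CpG-B arrays lay below the unstimulated ones, while in DKO they overlapped. Its change was -0.07 (adjusted p = 0.447) for DKO, -0.27 (adjusted p = 0.00612) for Irf5-KO, -0.76 (adjusted p = 7.35e-08) for Lyn-KO and -0.74 (adjusted p = 1.15e-07) for WT cells, and the Irf5-KO call ended without Irf5-KO CpG-B replicate 2 (change -0.18). Ebp, the isomerase of the sterol double bond, fell by 0.37 for DKO, 0.27 for Irf5-KO, 0.58 for Lyn-KO and 0.42 for WT cells on the log2 scale.

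The promoters of genes that moved together are shown for the letters they share. RefSeq windows (build GRCm38.p6, 250 bases before to 50 after each start) were found for 30 of the 40 genes, 39 windows in all. They were searched on both strands for the sterol regulatory element TCACNCCAC, which SREBP proteins bind, for the CCAAT box, which the factor NF-Y binds beside SREBP, for the E-box CACGTG and for the GC box GGGCGG, with overlapping matches counted. In the 4 windows printed below, no match overlapped one of another motif. The CCAAT box stood in 9 of 11 windows from squalene to cholesterol (81.8%), 5 of 7 of the mevalonate pathway (71.4%), 5 of 10 of the sensing and transport genes (50%), 3 of 6 of the efflux genes (50%) and 2 of 5 of the fatty acid genes (40%), which made 24 of the 39 (61.5%), against 37.4% of all 32841 windows and 38.2% of those of protein-coding genes. The GC box stood in 29 of the 39 windows (74.4%), against 35.7% of all windows and 46.2% of those of protein-coding genes. The E-box stood in 7 of the 39 (17.9%), against 7.15% of all windows. The sterol element in this exact form stood in 1 of the 39, that of Hmgcs1, against 1.24% of all windows. A match is a description of letters, and no match says only that these letters are absent from the window. The windows of Hmgcs1 (chr13:119690101-119690400, + strand), Idi1 (chr13:8885356-8885655, + strand), Mvd (chr8:122443373-122443672, - strand) and Hsd17b7 (chr1:169969156-169969455, - strand) follow, 5′ to 3′ on the strand of the gene, as examples of the mevalonate pathway and, with Hsd17b7, of the steps after squalene, chosen after their values were seen; capitals mark the sterol element and CCAAT boxes of either strand.
Hmgcs1: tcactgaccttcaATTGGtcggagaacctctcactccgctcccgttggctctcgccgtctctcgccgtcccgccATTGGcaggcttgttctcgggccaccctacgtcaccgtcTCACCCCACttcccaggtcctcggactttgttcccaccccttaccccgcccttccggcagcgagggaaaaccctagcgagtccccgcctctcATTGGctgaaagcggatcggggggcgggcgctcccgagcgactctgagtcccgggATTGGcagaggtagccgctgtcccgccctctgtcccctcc
Idi1: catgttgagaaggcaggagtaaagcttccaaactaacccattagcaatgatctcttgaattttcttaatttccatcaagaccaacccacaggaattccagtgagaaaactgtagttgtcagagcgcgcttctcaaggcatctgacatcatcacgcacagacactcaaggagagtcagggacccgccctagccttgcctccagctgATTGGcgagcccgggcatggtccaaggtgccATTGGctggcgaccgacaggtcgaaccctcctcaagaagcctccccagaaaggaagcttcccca
Mvd: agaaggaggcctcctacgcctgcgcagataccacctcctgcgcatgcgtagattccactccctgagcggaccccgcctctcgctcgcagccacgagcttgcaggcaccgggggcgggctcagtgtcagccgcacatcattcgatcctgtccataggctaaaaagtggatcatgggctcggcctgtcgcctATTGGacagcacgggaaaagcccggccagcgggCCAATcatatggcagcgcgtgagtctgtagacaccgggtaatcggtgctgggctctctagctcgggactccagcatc
Hsd17b7: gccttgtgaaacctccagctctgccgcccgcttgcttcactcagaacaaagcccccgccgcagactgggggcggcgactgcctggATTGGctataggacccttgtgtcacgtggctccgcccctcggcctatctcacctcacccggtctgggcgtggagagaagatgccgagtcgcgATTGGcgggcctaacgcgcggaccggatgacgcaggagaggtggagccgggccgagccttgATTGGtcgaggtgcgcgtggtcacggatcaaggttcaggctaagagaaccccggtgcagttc
In Hmgcs1 the sterol element lies at bases -137 to -129 from the start, and 4 CCAAT boxes stand around it, all on the opposite strand. Hsd17b7 has 3 CCAAT boxes on the opposite strand, at -165, -73 and -12, Idi1 has 2, at -45 and -14, and Mvd has 1 on each strand, at -60 and -27.

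Among the genes that sense and move sterols, Srebf2 and Stard4 were higher in DKO than in WT with CpG-B on both of their probes, while the probes of each differed on the direction of the CpG-B response in some genotypes. Srebf2, the gene of SREBP2, had CpG-B signals of 2.87, 3.00 and 3.22 in DKO cells, 2.46, 2.51 and 2.76 in Irf5-KO cells, 2.29, 2.31 and 2.53 in Lyn-KO cells and 1.98, 2.01 and 2.06 in WT cells. Without CpG-B it had 2.29, 2.32 and 2.50 in DKO cells, 2.34, 2.45 and 2.48 in Irf5-KO cells, 2.29, 2.36 and 2.49 in Lyn-KO cells and 2.22, 2.43 and 2.48 in WT cells. The unstimulated genotypes overlapped, while with CpG-B the WT arrays were below all others and the DKO arrays above. Srebf2 changed by 0.66 (adjusted p = 9.65e-06) for DKO, 0.15 (adjusted p = 0.193) for Irf5-KO, 0.00 (adjusted p = 0.969) for Lyn-KO and -0.36 (adjusted p = 0.00402) for WT cells. With the slide as a block the Irf5-KO change passed too (adjusted p = 0.0176), but with the mean of both Srebf2 probes it was -0.18. With CpG-B it was above WT by 1.01 (adjusted p = 1.51e-07) in DKO, 0.55 (adjusted p = 0.000399) in Irf5-KO and 0.36 (adjusted p = 0.0131) in Lyn-KO cells, and the Lyn-KO call ended without Lyn-KO CpG-B replicate 3 (0.28). On the second Srebf2 probe the change was -0.21 (adjusted p = 0.0666) in DKO, -0.52 (adjusted p = 0.000134) in Irf5-KO, -0.71 (adjusted p = 3.17e-06) in Lyn-KO and -0.90 (adjusted p = 1.54e-07) in WT cells. On it the DKO cells with CpG-B were above WT by 1.15 (adjusted p = 2.05e-08), and without CpG-B DKO was above WT by 0.47 (adjusted p = 0.00611), Irf5-KO by 0.45 (adjusted p = 0.042) and Lyn-KO by 0.36 (adjusted p = 0.0447). The rise in DKO thus rests on 1 probe. The response exceeded that of WT in DKO on both probes, by 1.02 on the first and 0.69 on the second (adjusted p = 0.000943).

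Stard4, a carrier that moves cholesterol between membranes, had 3.00, 2.95 and 3.11 in DKO cells, 2.55, 2.36 and 2.17 in Irf5-KO cells, 2.08, 1.99 and 1.97 in Lyn-KO cells and 1.67, 1.53 and 1.78 in WT cells with CpG-B. Unstimulated cells had 2.08, 2.21 and 2.30 in DKO cells, 2.13, 2.16 and 2.03 in Irf5-KO cells, 2.20, 2.36 and 2.30 in Lyn-KO cells and 2.17, 2.21 and 2.23 in WT cells. On this probe the 4 genotypes with CpG-B lay at 4 separate levels around the unstimulated level, DKO above it and WT below. The response was 0.83 (adjusted p = 6.44e-08) for DKO, 0.25 (adjusted p = 0.015) for Irf5-KO, -0.28 (adjusted p = 0.00821) for Lyn-KO and -0.55 (adjusted p = 1.51e-05) for WT cells, and DKO exceeded WT in response by 1.37 ± 0.12 (adjusted p = 9.09e-08). The Irf5-KO call ended without Irf5-KO CpG-B replicate 1 (0.16) or unstimulated Irf5-KO replicate 3 (0.21). On the second Stard4 probe the change was 1.71 (adjusted p = 1.94e-06) in DKO, 1.10 (adjusted p = 0.000343) in Irf5-KO, 0.01 (adjusted p = 0.959) in Lyn-KO and 0.35 (adjusted p = 0.182) in WT cells, so the falls in Lyn-KO and WT rest on 1 probe. With the mean of both probes the WT change was -0.10.

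Insig1, which holds SCAP back and is itself a target of SREBP, had 1.76, 1.54 and 1.61 in DKO cells, 1.12, 0.91 and 1.04 in Irf5-KO cells, 1.08, 0.93 and 0.70 in Lyn-KO cells and 0.83, 0.77 and 0.69 in WT cells with CpG-B. It had 0.48, 0.40 and 0.31 in DKO cells, 0.28, 0.29 and 0.04 in Irf5-KO cells, 0.41, 0.46 and 0.40 in Lyn-KO cells and 0.10, 0.17 and -0.32 in WT cells without CpG-B. DKO stood above the other genotypes with CpG-B, by 0.87 (adjusted p = 4.75e-06) over WT. Insig1 rose by 1.24 for DKO, 0.82 for Irf5-KO, 0.48 for Lyn-KO and 0.78 for WT cells. Insig2, its relative that does not depend on SREBP, fell by 0.66 for DKO, 0.50 for Irf5-KO, 0.68 for Lyn-KO and 0.61 for WT cells on the log2 scale. Scap, the escort protein, rose by 0.60 in Lyn-KO and 0.54 in WT cells. Its changes of 0.26 in DKO and 0.20 in Irf5-KO turned to -0.10 and -0.03 with quantile normalisation, and the Irf5-KO call also ended without CpG-B replicate 1 or 3 or unstimulated replicate 2 (0.14 to 0.19). Scap was below WT in Irf5-KO cells with CpG-B, with a difference of -0.52 (adjusted p = 2.94e-05). Srebf1, the gene of SREBP1, did not pass the test for a CpG-B response in any genotype, with changes of 0.14 for DKO, -0.03 for Irf5-KO, 0.13 for Lyn-KO and -0.06 for WT cells.

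The genes of efflux, esterification and lysosomal release shared no single direction: 4 of 8 rose in each genotype, and 3 fell for DKO, 2 for Irf5-KO, 3 for Lyn-KO and 3 for WT cells. Nr1h3, the liver X receptor alpha, rose in all. Its CpG-B signals were 3.13, 2.86 and 2.77 in DKO cells, 2.73, 2.95 and 2.83 in Irf5-KO cells, 2.65, 2.60 and 2.60 in Lyn-KO cells and 2.05, 2.02 and 1.94 in WT cells. Without CpG-B they were 0.14, -0.37 and -0.36 in DKO cells, 0.11, 0.26 and 0.15 in Irf5-KO cells, -0.27, -0.42 and -0.31 in Lyn-KO cells and 0.05, -0.05 and -0.20 in WT cells. All mutant arrays with CpG-B lay above WT, and DKO and Irf5-KO overlapped. The increase was 8.66-fold in DKO, 6.32-fold in Irf5-KO, 7.75-fold in Lyn-KO and 4.2-fold in WT cells. The differences of response from WT were 1.04 (adjusted p = 7.01e-05) for DKO, 0.59 (adjusted p = 0.0209) for Irf5-KO and 0.88 (adjusted p = 0.00124) for Lyn-KO. The Irf5-KO difference lost its call without Irf5-KO CpG-B replicate 2 (0.53), unstimulated Irf5-KO replicate 1 (0.56) or unstimulated WT replicate 1 (0.53).

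Abca1, the pump that hands cholesterol to apolipoprotein A-I and a known target of the liver X receptor, fell while Nr1h3 rose. With CpG-B it had -1.21, -2.10 and -1.95 in DKO cells, -1.37, -0.99 and -1.25 in Irf5-KO cells, -3.22, -2.76 and -2.67 in Lyn-KO cells and -2.45, -2.19 and -2.31 in WT cells. Unstimulated means were -0.26 in DKO, 0.11 in Irf5-KO, -0.36 in Lyn-KO cells and -0.04 in WT cells. Irf5-KO arrays with CpG-B were above all WT arrays with CpG-B, and the Lyn-KO arrays were below them. With CpG-B, Abca1 was 2.81-fold lower than unstimulated in DKO, 2.48-fold in Irf5-KO, 5.77-fold in Lyn-KO and 4.85-fold in WT cells. With CpG-B it was higher in Irf5-KO than in WT by 1.11 (adjusted p = 0.000117). The DKO difference of 0.56 (adjusted p = 0.0147) lost its call without DKO CpG-B replicate 1 (0.29) or WT CpG-B replicate 1 (0.50), and the Lyn-KO difference of -0.57 (adjusted p = 0.0251) without Lyn-KO replicate 1 (-0.40), WT replicate 2 (-0.50) or WT replicate 3 (-0.57) with CpG-B. Abcg1, a pump that loads high-density lipoprotein, rose in Irf5-KO cells by 0.67 (adjusted p = 1.26e-07). Its change of 0.18 in DKO turned to -0.09 with quantile normalisation and -0.19 with normexp background correction.

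Soat2, which esterifies cholesterol for storage, had the widest spread between genotypes of the 40. With CpG-B its signals were -2.66, -2.44 and -2.50 in DKO cells, -0.36, -0.21 and -0.04 in Irf5-KO cells, -1.03, -0.95 and -0.93 in Lyn-KO cells and 1.43, 1.23 and 1.27 in WT cells. Without CpG-B they were -1.32, -1.16 and -1.19 in DKO cells, -1.97, -1.79 and -1.32 in Irf5-KO cells, -2.40, -2.19 and -1.57 in Lyn-KO cells and -2.08, -1.94 and -2.02 in WT cells. With CpG-B the 4 genotypes did not overlap, WT was far above the rest, and DKO lay below its own unstimulated arrays. CpG-B changed it by -1.31 (adjusted p = 1.08e-06) for DKO, 1.49 (adjusted p = 2.1e-07) for Irf5-KO, 1.08 (adjusted p = 1.16e-05) for Lyn-KO and 3.33 (adjusted p = 1.49e-12) for WT cells, which was 10-fold higher in WT and 2.47-fold lower in DKO. The differences of response from WT were -4.63 (adjusted p = 1.05e-10) for DKO, -1.83 (adjusted p = 2.94e-05) for Irf5-KO and -2.24 (adjusted p = 4.78e-06) for Lyn-KO. With CpG-B, DKO was 14.4-fold, Irf5-KO 2.85-fold and Lyn-KO 4.86-fold below WT, and DKO was also below each single mutant. Soat1, the other esterifying enzyme, had -1.38, -1.72 and 0.74 in DKO cells with CpG-B, where replicate 3 stood apart. It fell in Lyn-KO by 1.44 (adjusted p = 0.00609) and in WT by 1.09 (adjusted p = 0.0315) on the log2 scale, but without any one of 5 of the 6 WT arrays the WT call was lost, at -1.12 to -0.86. It changed by -0.87 (adjusted p = 0.0831) in Irf5-KO, or by -1.23 without Irf5-KO CpG-B replicate 1 (adjusted p = 0.0259), and by -0.20 (adjusted p = 0.688) in DKO, or by -0.97 without DKO CpG-B replicate 3 (adjusted p = 0.00437).

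Mylip, a ubiquitin ligase that limits lipoprotein uptake and a target of the liver X receptor, was lower with CpG-B in the arrays labelled DKO and Irf5-KO. It had 2.59, 2.64 and 2.91 in DKO cells, 1.91, 2.15 and 2.17 in Irf5-KO cells, 3.91, 4.06 and 3.98 in Lyn-KO cells and 3.70, 3.67 and 3.59 in WT cells with CpG-B. Unstimulated signals were 2.24, 2.26 and 2.39 in DKO cells, 2.08, 2.25 and 2.36 in Irf5-KO cells, 2.32, 2.38 and 2.23 in Lyn-KO cells and 2.33, 2.23 and 2.17 in WT cells, and they overlapped. With CpG-B, DKO and Irf5-KO arrays lay below all Lyn-KO and WT arrays. CpG-B changed it by 0.42 (adjusted p = 0.000473) for DKO, -0.15 (adjusted p = 0.149) for Irf5-KO, 1.67 (adjusted p = 5.24e-12) for Lyn-KO and 1.41 (adjusted p = 6.59e-11) for WT cells. The response was below that of WT, with a difference of -0.99 ± 0.13 in DKO and -1.56 ± 0.13 in Irf5-KO, and differed by 0.26 ± 0.13 in Lyn-KO (adjusted p = 0.243).

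Npc1 and Npc2 release cholesterol from lysosomes, and they moved in opposite directions. Npc1, the membrane protein, had 1.10, 1.07 and 0.97 in DKO cells, 0.51, 0.56 and 0.58 in Irf5-KO cells, 0.50, 0.46 and 0.40 in Lyn-KO cells and 0.10, 0.17 and -0.03 in WT cells with CpG-B. It had 2.07, 1.88 and 1.87 in DKO cells, 1.88, 1.69 and 1.58 in Irf5-KO cells, 1.96, 2.02 and 2.01 in Lyn-KO cells and 1.65, 1.70 and 1.64 in WT cells without CpG-B. It fell in every genotype, least in DKO, where the CpG-B arrays stayed above those of the other genotypes. The change was -0.90 for DKO, -1.16 for Irf5-KO, -1.54 for Lyn-KO and -1.58 for WT cells, and with CpG-B it was above WT by 0.97 (adjusted p = 3.19e-09) in DKO, 0.47 (adjusted p = 6.96e-05) in Irf5-KO and 0.38 (adjusted p = 0.000696) in Lyn-KO cells. Npc2, its soluble partner, rose by 1.12 for DKO, 1.24 for Irf5-KO, 1.14 for Lyn-KO and 1.23 for WT cells, and its response did not pass the test against WT (adjusted p at least 0.39).

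**Figure D3:**
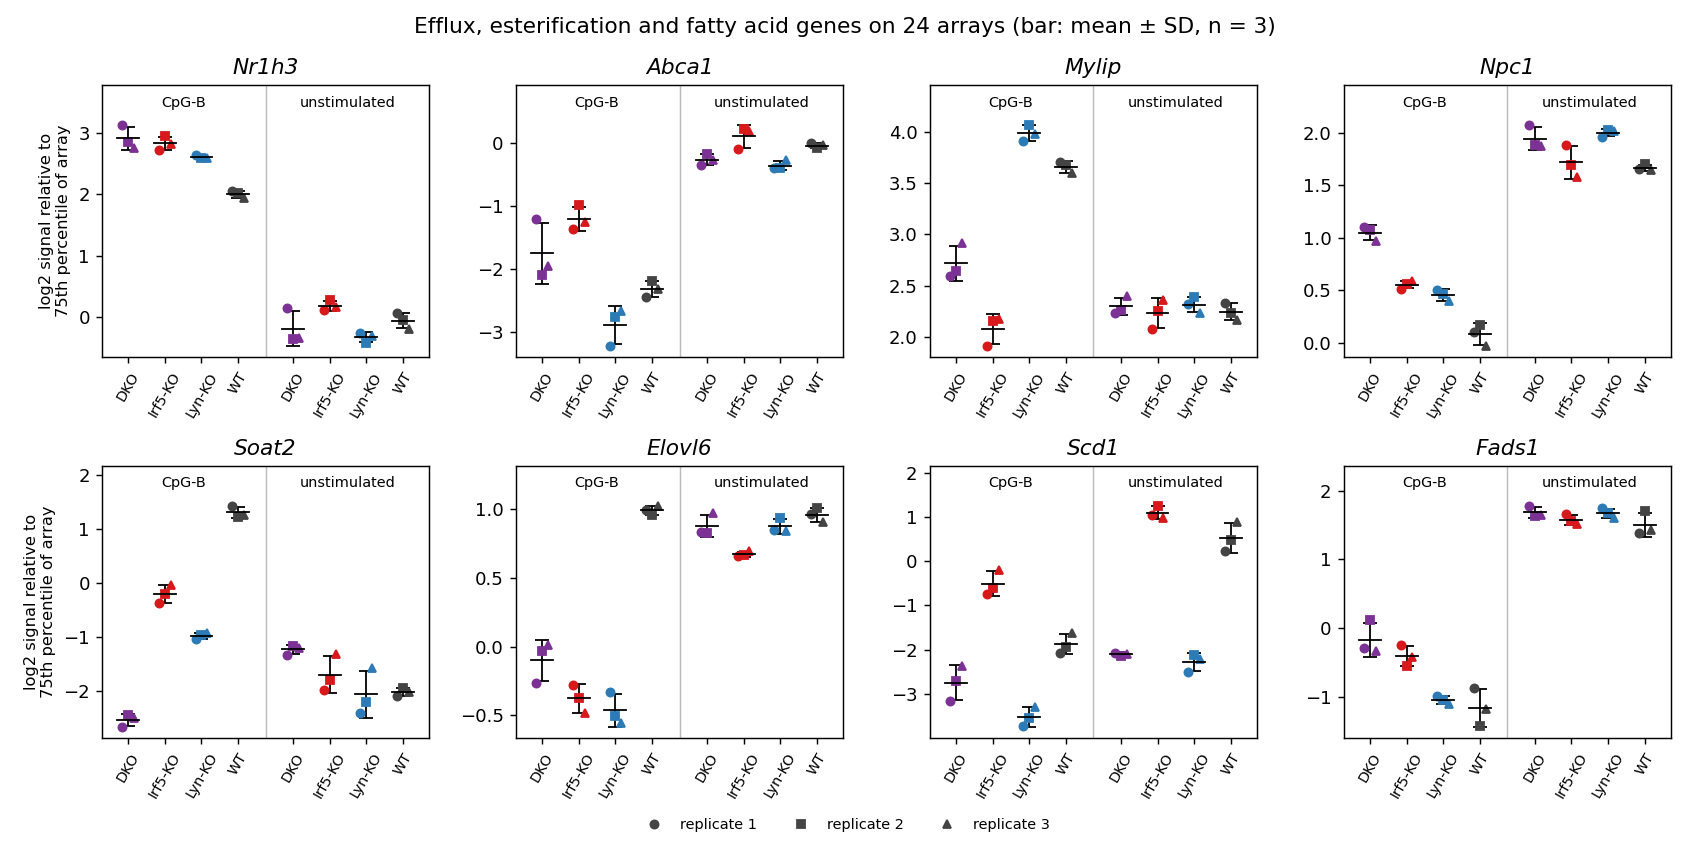
Log2 signal relative to the 75th percentile of the array (y axis) of 8 genes of efflux, esterification and fatty acids on each of the 24 arrays, with CpG-B groups left and unstimulated groups right of the grey line, genotypes in colours and replicates as symbols. Bars are means ± SD of 3 arrays. Among the CpG-B arrays, WT stands alone at the top for Soat2 and Elovl6, and the DKO and Lyn-KO arrays of Scd1 lie low with and without CpG-B.

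Of the 8 fatty acid genes, 2 rose and 5 fell in DKO, 2 rose and 5 fell in Irf5-KO, 1 rose and 6 fell in Lyn-KO, and 1 rose and 5 fell in WT cells. Acaca, the carboxylase that makes malonyl-CoA, was the gene that rose in each, by 0.50 for DKO, 0.40 for Irf5-KO, 0.32 for Lyn-KO and 0.34 for WT cells. Fasn, the fatty acid synthase, fell by 0.44 in Lyn-KO and 0.45 in WT cells on the log2 scale, and changed by 0.22 (adjusted p = 0.0674) in DKO and 0.06 (adjusted p = 0.607) in Irf5-KO. With the slide as a block the DKO change passed (adjusted p = 0.0424). Lpcat3, which places polyunsaturated acids into phospholipids, fell by 0.43 for DKO, 0.35 for Irf5-KO, 0.80 for Lyn-KO and 0.64 for WT cells.

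Elovl6, which elongates palmitoyl-CoA, fell in each mutant, and its change in WT did not pass the test. It had -0.27, -0.03 and 0.01 in DKO cells, -0.28, -0.37 and -0.48 in Irf5-KO cells, -0.33, -0.50 and -0.56 in Lyn-KO cells and 0.99, 0.96 and 1.02 in WT cells with CpG-B. Unstimulated cells had 0.84, 0.83 and 0.97 in DKO cells, 0.66, 0.66 and 0.69 in Irf5-KO cells, 0.85, 0.94 and 0.84 in Lyn-KO cells and 0.96, 1.01 and 0.91 in WT cells. With CpG-B the WT arrays overlapped the unstimulated WT arrays, and all mutant arrays lay below them. The change was -0.98 (adjusted p = 5.95e-10) for DKO, -1.05 (adjusted p = 2.45e-10) for Irf5-KO, -1.34 (adjusted p = 5.59e-12) for Lyn-KO and 0.03 (adjusted p = 0.697) for WT cells. Its differences of response from WT were -1.01 (adjusted p = 5.69e-07) for DKO, -1.08 (adjusted p = 1.07e-06) for Irf5-KO and -1.37 (adjusted p = 1.14e-07) for Lyn-KO. With CpG-B, DKO was above Lyn-KO by 0.36 ± 0.07.

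Scd1, a desaturase that makes monounsaturated acids, differed with Lyn before any stimulation. Unstimulated signals were -2.07, -2.15 and -2.10 in DKO cells, 1.04, 1.25 and 0.97 in Irf5-KO cells, -2.51, -2.11 and -2.21 in Lyn-KO cells and 0.22, 0.47 and 0.87 in WT cells. With CpG-B they were -3.15, -2.70 and -2.38 in DKO cells, -0.75, -0.60 and -0.19 in Irf5-KO cells, -3.74, -3.54 and -3.30 in Lyn-KO cells and -2.07, -1.95 and -1.62 in WT cells. The DKO and Lyn-KO arrays lay below all Irf5-KO and WT arrays, far below without CpG-B and less so with it. Unstimulated, Scd1 was 6.17-fold lower in DKO and 6.97-fold lower in Lyn-KO than in WT (adjusted p = 1.45e-07 and 5.4e-08), and its difference in Irf5-KO was 0.57 (adjusted p = 0.257). CpG-B lowered it in each genotype, with changes of -0.64 for DKO, -1.60 for Irf5-KO, -1.25 for Lyn-KO and -2.40 for WT cells, and with the DKO call lost without DKO CpG-B replicate 1 (-0.44). In Lyn-KO it was well above background on 2 of 3 arrays with CpG-B. The summed signal of 7 B cell markers followed the same genotypes: unstimulated it was 7.22 to 9.94 in DKO, with 5 of the 7 above background, and 8.02 to 8.26 in Lyn-KO, with 4 of the 7. It was 72.4 to 86.6 in Irf5-KO and 47.6 to 66.5 in WT cells, with 7 of 7 in both. With CpG-B it was 11.7 to 13.4 for DKO, 44.0 to 53.7 for Irf5-KO, 16.4 to 17.7 for Lyn-KO and 35.1 to 37.3 for WT cells. The part of B cells in the Scd1 result was not tested.

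The other desaturases were not called between unstimulated Lyn-KO and WT cells, with differences of 0.20 for Scd2, 0.17 for Fads1 and 0.42 for Fads2. Scd2 had 4.26, 4.24 and 4.32 in DKO cells, 3.88, 3.63 and 3.80 in Irf5-KO cells, 3.51, 3.24 and 3.25 in Lyn-KO cells and 3.42, 3.13 and 3.31 in WT cells with CpG-B. It had 4.86, 5.03 and 5.02 in DKO cells, 4.65, 4.58 and 4.61 in Irf5-KO cells, 5.0, 5.05 and 5.06 in Lyn-KO cells and 4.79, 4.82 and 4.91 in WT cells without CpG-B. It fell in all genotypes, with changes of -0.70 for DKO, -0.84 for Irf5-KO, -1.70 for Lyn-KO and -1.55 for WT cells, and DKO arrays stayed highest with CpG-B. Fads1, the delta-5 desaturase of polyunsaturated acids, fell most of the 8 in each genotype, with changes of -1.86 for DKO, -1.99 for Irf5-KO, -2.72 for Lyn-KO and -2.66 for WT cells, and with CpG-B was above WT by 0.98 (adjusted p = 4.88e-06) in DKO and 0.75 (adjusted p = 0.000246) in Irf5-KO. Fads2, the delta-6 desaturase, rose by 0.55 (adjusted p = 0.000967) in DKO and 0.38 (adjusted p = 0.0159) in Irf5-KO, where the call ended without Irf5-KO CpG-B replicate 3 (0.26). Its changes in Lyn-KO and WT were -0.23 (adjusted p = 0.121) and -0.20 (adjusted p = 0.192).

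**Figure D4:**
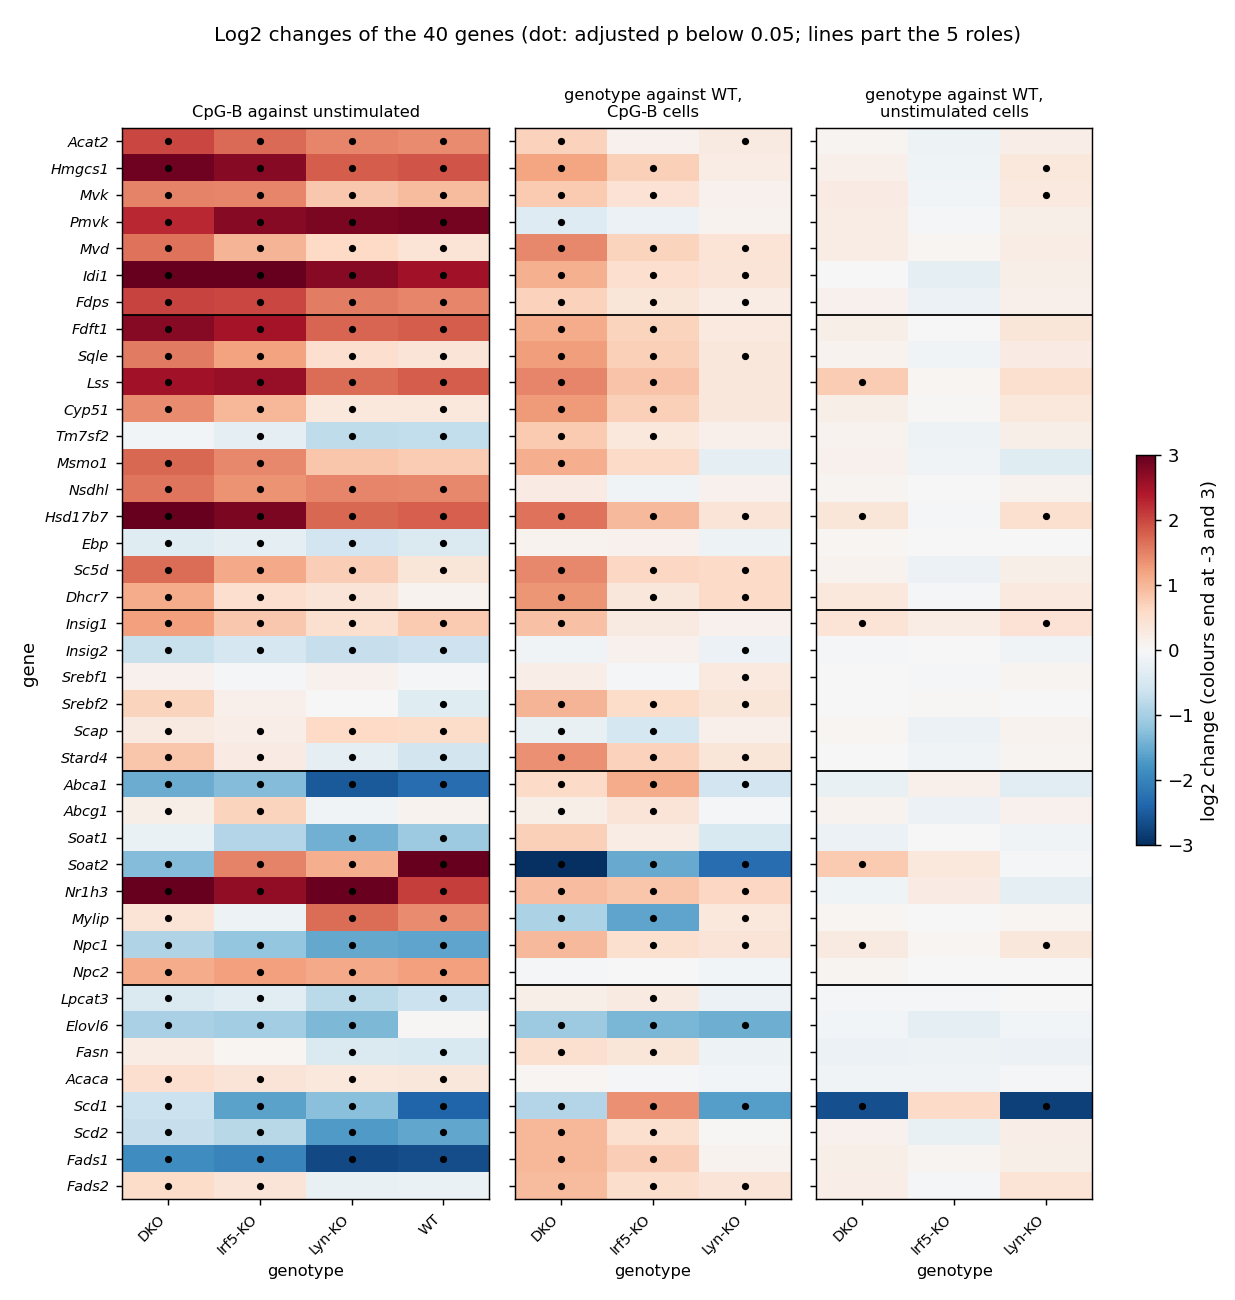
Log2 changes of the 40 genes (rows, in the order of the text, with lines between the 5 roles) for CpG-B against unstimulated cells in each genotype (left), each mutant against WT with CpG-B (middle) and each mutant against WT without CpG-B (right). Red is higher, blue is lower, colours end at -3 and 3, and a dot marks an adjusted p below 0.05. The mevalonate rows are red in all 4 columns on the left, and the right panel holds few dots, with Scd1 the deepest blue in DKO and Lyn-KO.

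**Figure D5:**
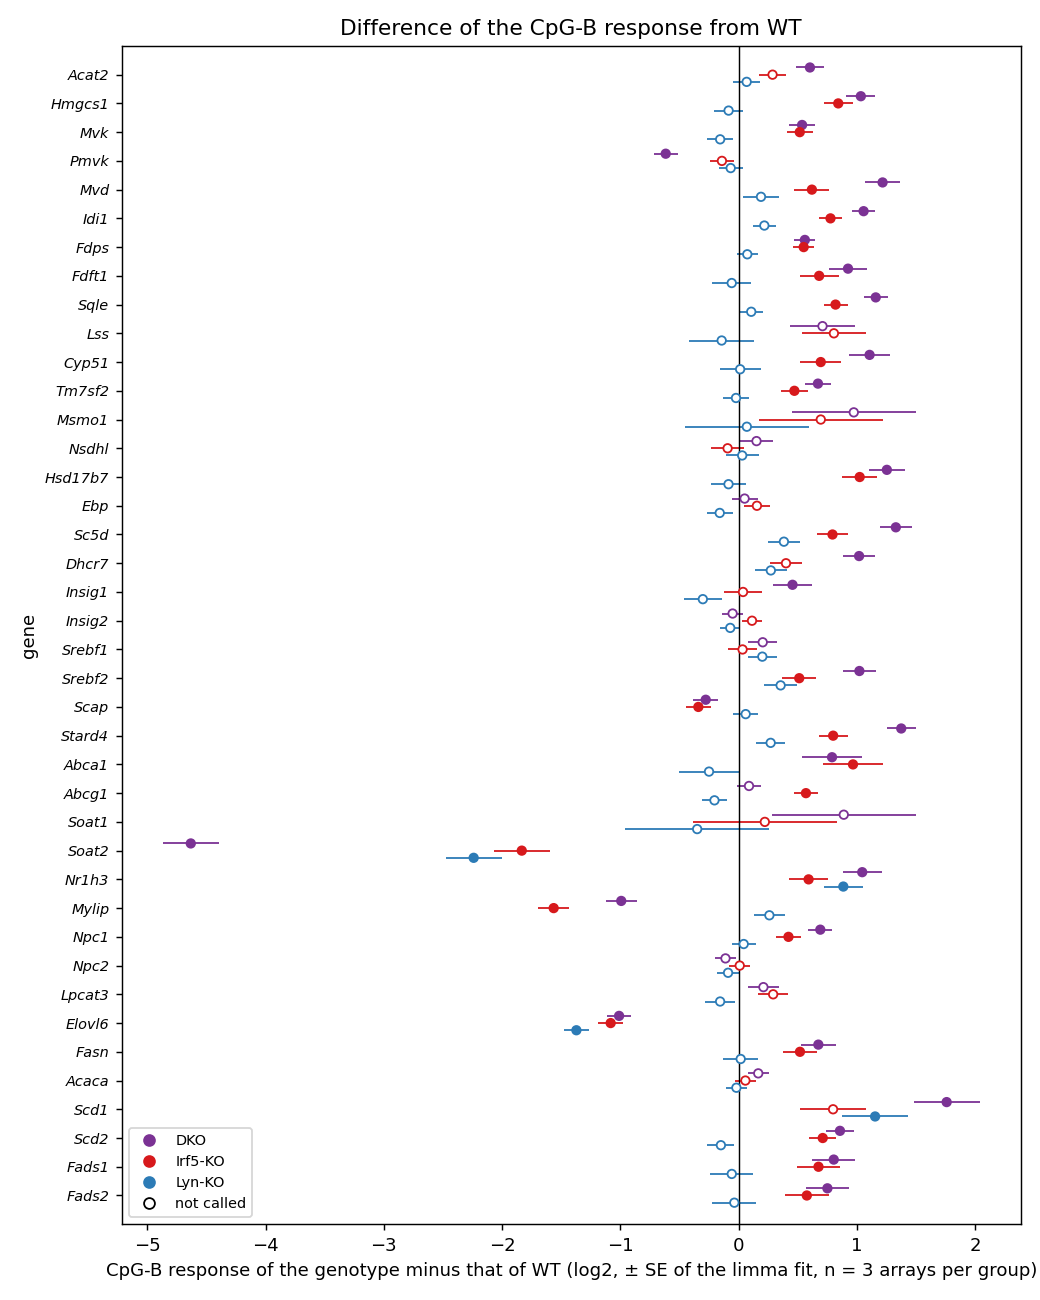
CpG-B response of each mutant minus that of WT (x axis, log2 ± SE of the fit, 3 arrays per group) for the 40 genes (y axis). Filled points have an adjusted p below 0.05. DKO points lie to the right for most synthesis genes, and Irf5-KO points lie between DKO and zero for many of them. Soat2 and Elovl6 lie to the left in all mutants, and Mylip does so in DKO and Irf5-KO.

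Without CpG-B fewer of the 40 genes were called than with it. In DKO against WT 6 of the 40 were called, against 6.78% of all features: Lss, Hsd17b7, Insig1, Soat2 and Npc1 were higher and Scd1 was lower. In Lyn-KO against WT 6 were called, against 4.58%: Hmgcs1, Mvk, Hsd17b7, Insig1 and Npc1 were higher and Scd1 was lower. The second Hsd17b7 probe was not called against WT, at 0.22 (adjusted p = 0.278) in DKO and 0.28 (adjusted p = 0.166) in Lyn-KO. Nor was the second Mvk probe in Lyn-KO, at 0.30 (adjusted p = 0.169). In Irf5-KO against WT 0 were called, against 0.737%, with 8 at an unadjusted p under 0.05 in limma, against 10.5% of all features, and 1 called after normexp background correction. In DKO against Lyn-KO 0 were called, against 0.163%, with 2 at an unadjusted p under 0.05, against 6.68%, and Soat2 passed with the slide as a block (0.83 ± 0.17, adjusted p = 0.0173). In DKO against Irf5-KO 10 were called, against 5.35%, of which 9 were higher and Scd1 was lower. At an unadjusted p under 0.05 there were 20 in DKO against Irf5-KO, against 16.0% of all features, 9 in DKO against WT, against 19.0%, and 19 in Lyn-KO against WT, against 16.3%. With the slide as a block 15 passed in DKO against Irf5-KO, 8 in DKO against WT and 8 in Lyn-KO against WT. The shares of all features given here are from the fit without the block, so these counts have no share beside them. Of the increases, Npc1 was 1.21-fold higher in DKO and 1.26-fold higher in Lyn-KO than in WT, and Insig1 1.33-fold and 1.36-fold. Most rested on single arrays. Soat2 and Scd1 kept their calls in DKO against WT, Npc1 and Scd1 in Lyn-KO against WT, and Fdps and Scd1 in DKO against Irf5-KO, whichever single array was left out. Of the 6 calls in DKO against WT, 3 stayed without unstimulated WT replicate 1 or DKO replicate 1. The 6 in Lyn-KO became 3 without unstimulated WT replicate 1 or Lyn-KO replicate 2, and 2 without Lyn-KO replicate 3. The 10 became 3 without replicate 2 of DKO or of Irf5-KO, 5 without DKO replicate 3, and 4 without Irf5-KO replicate 3, where Soat2 was gained.

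Genes of the same pathways that are not among the 40 were counted in the same way. Of 10 measured genes of sterol synthesis outside the 40, 6 were higher in DKO than in WT with CpG-B, against 24.9% of all features, and 0 were lower, against 19.9% (median 0.18). Of 12 genes of SREBP processing, 5 were higher and 1 lower, beside the same shares (median 0.12).

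Among the 10 uptake and lysosomal genes measured, 7 were higher in DKO than in WT with CpG-B, against 24.9% of all features, and 1 was lower, against 19.9% (median 0.79). Cd36, a scavenger receptor for oxidised lipoprotein and fatty acids, had 1.74, 2.01 and 2.30 in DKO cells, 0.23, 0.18 and 0.27 in Irf5-KO cells, -0.85, -0.56 and -0.06 in Lyn-KO cells and -1.72, -1.30 and -1.45 in WT cells with CpG-B. It had 0.21, 0.78 and 0.28 in DKO cells, 1.06, 1.20 and 1.11 in Irf5-KO cells, -0.41, -0.13 and -0.07 in Lyn-KO cells and 0.40, 0.61 and 0.84 in WT cells without CpG-B. It rose in DKO by 1.59 ± 0.19 and fell in WT by 2.10 on the log2 scale, and the DKO arrays with CpG-B were above all others. Lipa, the lysosomal acid lipase, fell in each genotype, least in DKO (-0.82 for DKO, -1.69 for Irf5-KO, -1.95 for Lyn-KO and -2.24 for WT cells). Cd36 is also carried by macrophages, whose summed markers were higher in DKO and Irf5-KO than in WT with CpG-B, and their part in this result was not tested.

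Ch25h, which makes the oxysterol 25-hydroxycholesterol, had 1.72, 1.75 and 1.32 in DKO cells, 0.36, 0.74 and 0.87 in Irf5-KO cells, 1.39, 1.73 and 1.86 in Lyn-KO cells and -0.23, 0.01 and -0.06 in WT cells with CpG-B. Unstimulated signals were -3.39, -2.91 and -3.51 in DKO cells, -3.72, -3.56 and -3.23 in Irf5-KO cells, -3.34, -3.02 and -3.63 in Lyn-KO cells and -2.71, -3.29 and -3.67 in WT cells. It rose by 4.87 for DKO, 4.16 for Irf5-KO, 4.99 for Lyn-KO and 3.13 for WT cells, and with CpG-B it was above WT by 1.69 (adjusted p = 7.48e-06) in DKO, 0.75 (adjusted p = 0.0223) in Irf5-KO and 1.75 (adjusted p = 1.47e-05) in Lyn-KO cells. Cyp7b1, which breaks oxysterols down, rose by 2.75 for DKO, 3.36 for Irf5-KO, 2.93 for Lyn-KO and 3.43 for WT cells. Of the 14 measured genes of the oxysterol and liver X receptor list, 3 were higher and 4 lower in DKO than in WT with CpG-B, near the 24.9% and 19.9% of all features (median -0.08). Lpin1, a phosphatidate phosphatase, fell by 1.27 for DKO, 2.10 for Irf5-KO, 2.93 for Lyn-KO and 3.33 for WT cells on the log2 scale. Cpt1a, the gate of fatty acid oxidation, fell by 1.03 for DKO, 1.07 for Irf5-KO, 1.63 for Lyn-KO and 1.77 for WT cells. Of 20 measured oxidation genes 5 were higher and 6 lower in DKO than in WT with CpG-B, beside 24.9% and 19.9% of all features, with a median of -0.12 beside 0.06 for all features.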

How the data were processed

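RNA of 24 samples in 8 groups of 3 was measured on one-colour Agilent arrays annotated to mm9. The deposited scanner files hold spot intensity, background-subtracted and detrended with Agilent Feature Extraction (version 10.7.3.1 in the submitters' processing notes), per the file headers. The authors' deposited series table holds log2 values centred on each probe; its scale is that of the 75th percentile and it served as an alternative. Here log2 of the processed signal minus each array's 75th percentile was taken, control spots and outlier spots were left out, and a probe was kept if some group had it well above background in all 3 of its arrays. Probes were named by RefSeq accession (26762 of 55681), and the probe with the highest mean stood for a gene. limma 3.58.1 (R 4.3.3) fitted 8 group means over the 24 arrays and 17 contrasts, 2-sided, with Benjamini-Hochberg adjustment over 20210 features at 0.05. The code was tested on simulated data.

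The 40 genes and the other lists were chosen with earlier results of these data known. The text names the 40, a few listed key genes, and the 3 genes of a list with the largest called change in WT at most; a few of these are not reported here. Alternatives were quantile normalisation, normexp with an offset of 50, 2 other filters on dim probes, the mean of a gene's probes, the series table, only the compared groups in the fit, each array left out, and the replicate number as a block. That number is the slide, per the file headers. Residuals of same-numbered arrays correlated at -0.08 to 0.29 (median 0.05), above 0.1 for 25 of 84 pairs, and all 12 CpG-B arrays correlated best with the unstimulated array of their genotype and number. The tests of the CpG-B response did not use this pairing within a genotype. The block stands only for what all groups on a slide share. Promoter windows came from RefSeq, build GRCm38.p6.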

Additional observations from a re-analysis of the deposited data

Results flagged for a closer look

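For 21 differences the CpG-B response of a mutant differed from that of WT by at least 2-fold and passed the test of the difference itself (limma, adjusted p below 0.05). In DKO cells the response was higher by 1.03 for Hmgcs1, 1.22 for Mvd and 1.06 for Idi1 of the mevalonate pathway (log2, as all values here). It was higher by 1.16 for Sqle, 1.11 for Cyp51, 1.25 for Hsd17b7, 1.33 for Sc5d and 1.02 for Dhcr7, which lie between squalene and cholesterol. Srebf2 and Stard4, which sense and carry sterol, differed by 1.02 and 1.37, Nr1h3 by 1.04 and Scd1 by 1.76. The DKO response was lower for Soat2, with a difference of -4.63, and for Elovl6, with -1.01.

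In Irf5-KO cells the difference was 1.02 for Hsd17b7, -1.83 for Soat2, -1.56 for Mylip and -1.08 for Elovl6. In Lyn-KO cells it was -2.24 for Soat2, -1.37 for Elovl6 and 1.15 for Scd1. The positive Scd1 differences in DKO and Lyn-KO are smaller falls than in WT, not rises. For Scd1 the unstimulated level was also lower in DKO and Lyn-KO than in WT, beside lower B cell markers, whose part was not tested.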

How the results depend on the processing

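Of 366 called results of the 40 genes, the call and direction held for 357 with quantile normalisation and 332 with normexp background correction. They held for 323 without the filter on dim probes and for 313 with only the compared groups in the fit. With the slide as a replicate block 366 held, and 62 were lost on leaving out some single array. Directions reversed for Srebf2 in Irf5-KO with the mean of its probes (-0.18), a change that was not called in the main fit. They also reversed for Scap with quantile normalisation in DKO (-0.10) and Irf5-KO (-0.033) and with normexp in DKO (-0.019). For Abcg1 they reversed in DKO with quantile (-0.089) and normexp (-0.19), and in DKO against WT with CpG-B with normexp (-0.019). The cause was not tested. Counts without CpG-B moved most. Without the filter, 3 were called in DKO against Irf5-KO, 2 in DKO against WT and 3 in Lyn-KO against WT, and with only the compared groups in the fit 2, 2 and 1. Normexp called 1 in Irf5-KO against WT. In DKO against Lyn-KO, 1 was called with quantile, normexp, the filter on all arrays and the replicate block. Leaving out single arrays gave 3 to 10 in DKO against Irf5-KO, 3 to 7 in DKO against WT, 2 to 4 in Lyn-KO against WT and 0 to 1 in DKO against Lyn-KO. With CpG-B, 3 were lower in DKO against Irf5-KO and 3 in Lyn-KO against WT both without the filter and with only the compared groups, and 3 to 6 and 3 to 4 when single arrays were left out. The response was higher in Lyn-KO than in WT for 1 gene with the filter on all arrays and 4 with the replicate block. The replicate block ended none of the calls made without it and added 24. Its shares of called features over all features are not given here. With CpG-B it added Nsdhl and Lpcat3 in DKO against WT, Pmvk and Insig1 in Irf5-KO against WT, Hmgcs1 and Fdft1 in Lyn-KO against WT, and Nr1h3 in DKO against Lyn-KO. Without CpG-B it added Pmvk and Dhcr7 in DKO against WT, Fdft1 and Sqle in Lyn-KO against WT, and Hmgcs1, Sc5d, Scap, Nr1h3 and Npc1 in DKO against Irf5-KO. It also added the responses of Lpcat3 and Scd1 in Irf5-KO against WT, and the 6 calls given beside Msmo1, Fasn, Srebf2, Sc5d and Soat2. With 3 arrays a group, small differences could not be resolved, and Scd1 lay near background in Lyn-KO.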
